A study of Macaca mulatta with 12 samples.

Results

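Serotonin receptor genes are described here across the neurons, glia and vessel cells of the rhesus macaque amygdala. The 6 genes are HTR1E, HTR1F, HTR2A, HTR2C, HTR3A and HTR4, chosen by name from the 19708 gene rows of the deposited table, and all 6 were found. Nuclei from frozen amygdala of rhesus macaques (Macaca mulatta) were profiled by droplet RNA sequencing, with 12 labelled samples that all belong to 1 group. The labels give no age, genotype or treatment, and specimen numbers run up to 3 with library numbers up to 4. The table holds 26400 nuclei in 3 sets told apart by a barcode suffix, and since no label ties a suffix to a specimen, the nuclei form 1 pool without replicates. No test between classes was therefore possible. Intervals below are exact 95% Poisson intervals for levels and exact Clopper-Pearson intervals for shares of nuclei. They cover counting error only, and the 3 sets, which may be technical, show only whether a direction recurred.

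Serotonin reaches the amygdala in axons from the raphe nuclei of the brainstem and is released far more widely than a single synapse, so a target cell's reply depends on the receptors it makes. HTR1E and HTR1F are receptors coupled to the inhibitory G protein Gi, which lowers cyclic AMP. HTR2A and HTR2C act through Gq, phospholipase C and calcium, and HTR4 acts through Gs, which raises cyclic AMP. HTR3A differs from the others, as it is a subunit of a fast cation channel opened by serotonin. HTR1E is missing from mice and rats, so tissue of those animals cannot show it.

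After 1862 presumed doublets were left out, 24538 nuclei remained, with a median depth of 4858 UMIs (unique molecular identifiers, 1 per captured RNA copy). Clusters were named from marker genes, and each name means that the nuclei were like that class. There were 11035 excitatory and 4122 inhibitory neurons. The others were 6008 astrocytes, 794 ependymal cells, 440 oligodendrocytes, 376 oligodendrocyte precursors, 106 committed precursors, 184 microglia, 173 mural cells (pericytes and vascular smooth muscle) and 131 endothelial cells. Depth differed by class, with medians of 7942 UMIs for excitatory and 5634 for inhibitory nuclei, and 1116 to 2722 in glial and vascular nuclei. Of the excitatory nuclei 46.3% lay in 1 cluster high in PROX1, a transcription factor of dentate granule cells, a hippocampal type, and the labels name only the amygdala. PROX1 was at 265 CPM in that cluster and at most 4.60 CPM in the other excitatory clusters, and its nuclei make up the sub-clusters E1, E2 and E5 below. Which region these nuclei came from was not tested. Where they move a call between excitatory and inhibitory neurons, the value without them is given. Calls of excitatory sub-clusters below are given with them in the mean, so single calls may depend on them. Without them the highest log2 fold of an excitatory sub-cluster was 1.27 for HTR1E, 2.36 for HTR2C and 1.15 for HTR4, each still past 2-fold. Between sets, 68 barcode sequences were seen in 2 of them. The 6 receptor genes took no part in the clustering. Levels are UMIs scaled as counts-per-million (CPM) and are compared only within a gene, because reads at the 3′ end give no common scale between genes. In pooled nuclei fewer nuclei with a gene and less RNA in each cannot be told apart by CPM alone, so shares of nuclei are given beside the levels that matter.

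The 6 genes fell into different patterns over the classes. HTR1E and HTR4 were highest in excitatory neurons, HTR2C and HTR3A in inhibitory neurons, HTR1F in mural cells, and HTR2A was at similar levels in neurons, astrocytes and oligodendrocyte precursors. Excitatory neurons held 68.7% of all UMIs but 83.9% of those of HTR1E, 85.8% of those of HTR4, 24.2% of those of HTR2C and 5.31% of those of HTR3A. Mural cells held 0.209% of all UMIs and 11.8% of those of HTR1F.

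**Figure D1:**
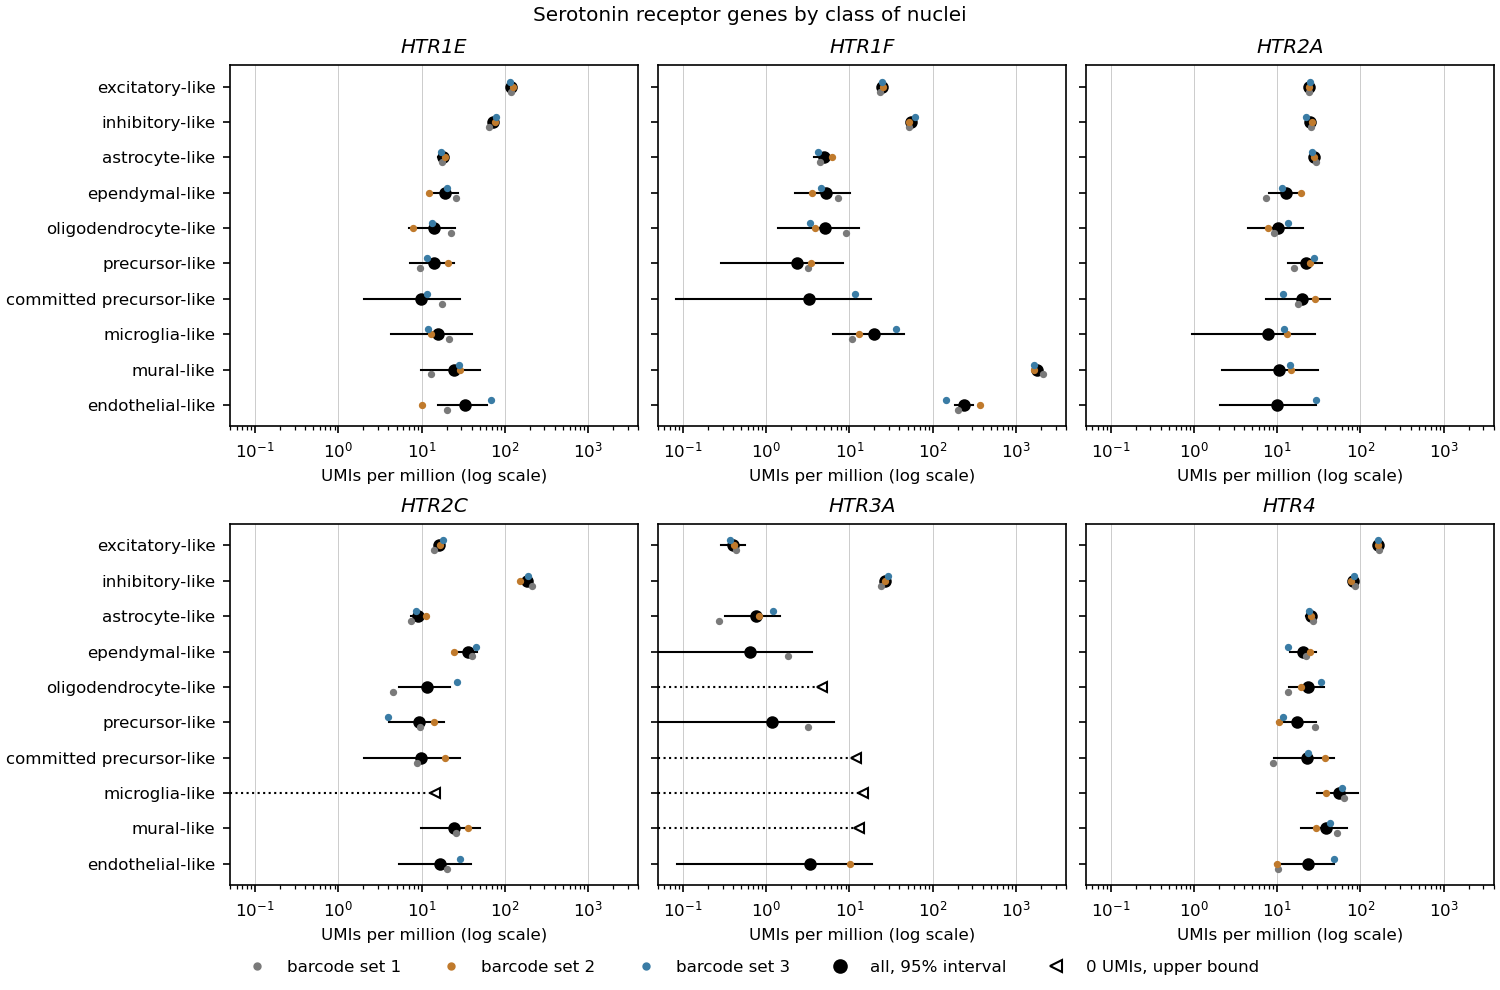
Level of each gene in CPM (log axis) in the 10 compared classes. Black points are all nuclei with exact 95% Poisson intervals, coloured points the 3 barcode sets with at least 1 UMI, and open triangles the upper bound where no UMI was seen; HTR1F stands at 1777 CPM in mural cells, and HTR2A stays near 25 CPM in excitatory and inhibitory neurons and astrocytes.

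Between excitatory and inhibitory neurons, 3 of the 6 genes were at least 2-fold lower in excitatory neurons and none was at least 2-fold higher. Of 7460 measured genes kept out of the clustering, 8.43% passed 2-fold in the lower and 8.75% in the higher direction, with a median log2 fold of -0.10 against -0.60 for the 6 genes. To be measured, a gene needed 50 UMIs on 1 of the sides, and depth enough for 10 on each at the higher level.

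HTR2C, the Gq receptor whose transcript is edited by adenosine deaminases, was at 16.2 CPM in excitatory neurons. In inhibitory neurons it reached 210 CPM in set 1, 154 in set 2 and 187 in set 3, against 13.9, 16.7 and 18.2 in excitatory neurons. The sets of the classes did not overlap, and inhibitory neurons were 11.3-fold higher. HTR3A, the channel subunit, gave 38 UMIs in all 11035 excitatory nuclei, or 0.404 CPM, and 663 UMIs in inhibitory neurons, or 26.7 CPM (24.7 to 28.8). Its interval in excitatory neurons, 0.286 to 0.554 CPM, overlapped that of astrocytes, which held 0.747 CPM (0.323 to 1.47). The share of nuclei with an HTR3A UMI was 10.4% in inhibitory neurons (median depth 5634 UMIs), 0.335% in excitatory neurons (7942 UMIs) and 0.133% in astrocytes (1733 UMIs).

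HTR1F, a Gi receptor, was at 23.1, 25.2 and 24.7 CPM in the sets of excitatory neurons and at 52.0, 51.5 and 61.1 in those of inhibitory neurons, 2.25-fold higher in the latter. A single sub-cluster of 112 nuclei, E12, gave 824 of the 2291 HTR1F UMIs of excitatory neurons. The Gs receptor HTR4 leaned the other way, at 163 CPM in excitatory and 81.8 CPM in inhibitory neurons. Its log2 fold of 1.00 (0.93 to 1.07) lay just under the 2-fold line, and it passed the line without set 1 or without set 3, at other clustering settings and, at 1.16, without the PROX1-high cluster. HTR1E, the other Gi receptor, was 1.65-fold higher in excitatory neurons, with log2 folds of 0.88, 0.70 and 0.57 in the sets. HTR2A did not differ in a stable direction, at 24.3 CPM against 24.8 and a log2 fold of -0.03 (-0.16 to 0.10).

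**Figure D2:**
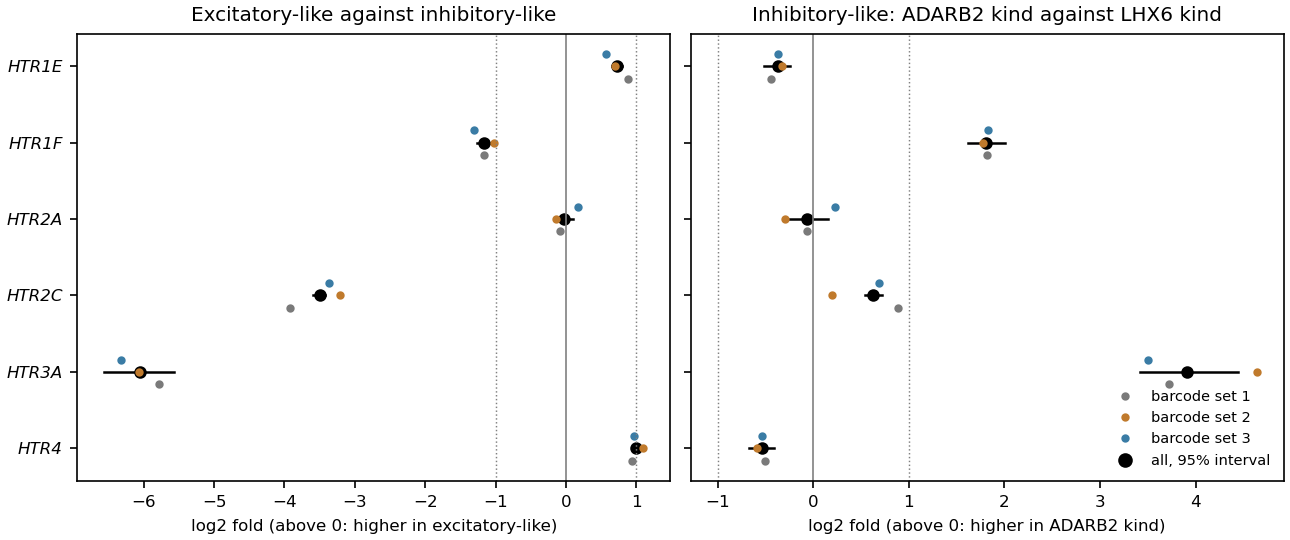
Log2 fold of each gene between excitatory and inhibitory neurons (left) and between inhibitory neurons of the ADARB2 kind and of the LHX6 kind (right), with 95% intervals from the counts in black, the 3 barcode sets in colour and dotted lines at 2-fold. HTR2C and HTR3A lie at -3.50 and -6.05 on the left, and HTR1F and HTR3A at 1.81 and 3.91 on the right.

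Inhibitory neurons fall into a kind marked by LHX6, which includes the SST and PVALB cells, and a kind marked by ADARB2, which includes the VIP and many RELN and LAMP5 cells. Of the 11 inhibitory sub-clusters compared, 5 were of the LHX6 kind and 6 of the ADARB2 kind. HTR1F and HTR3A were at least 2-fold higher in the ADARB2 kind and no member was at least 2-fold lower. Among 5693 measured genes the shares were 2.95% higher and 2.78% lower. HTR3A had 555 UMIs in the ADARB2 kind and 36 in the LHX6 kind, or 44.5 against 2.97 CPM, and its log2 folds were 3.72, 4.64 and 3.50 in the sets. HTR1F was at 83.8 against 23.8 CPM, with log2 folds of 1.82, 1.78 and 1.83. HTR2C was 1.55-fold higher in the ADARB2 kind, HTR4 was 1.45-fold and HTR1E 1.29-fold higher in the LHX6 kind, and HTR2A was at 24.4 and 25.6 CPM. With the kinds parted at a stricter marker level, the HTR1F fold fell to a log2 value of 1.00 and no longer passed 2-fold, the HTR3A fold was 3.44, and the HTR2C difference changed sign, to -0.64.

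Within each neuron class the sub-clusters ranged more widely than excitatory and inhibitory neurons differed as wholes, for every gene but HTR3A. They are numbered by size within each class, E1 to E13 for excitatory and I1 to I11 for inhibitory neurons, and each was set against the mean level of the others of its class. A further inhibitory sub-cluster, I12, had 35 nuclei, too few to compare, and its HTR2C at 1563 CPM and HTR3A at 290.8 CPM were above every sub-cluster compared. Among excitatory sub-clusters, 65 pairs of gene and sub-cluster were measured, of which 6 passed 2-fold upwards and 24 downwards, where all measured genes gave 3.55% and 8.12% of pairs. Among inhibitory sub-clusters, 9 of 66 pairs were higher and 27 lower, where all measured genes gave 2.82% and 5.88%. A single high sub-cluster raises the mean of the others, which is why 12 of the 24 lower excitatory pairs were those of HTR1F outside E12.

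**Figure D3:**
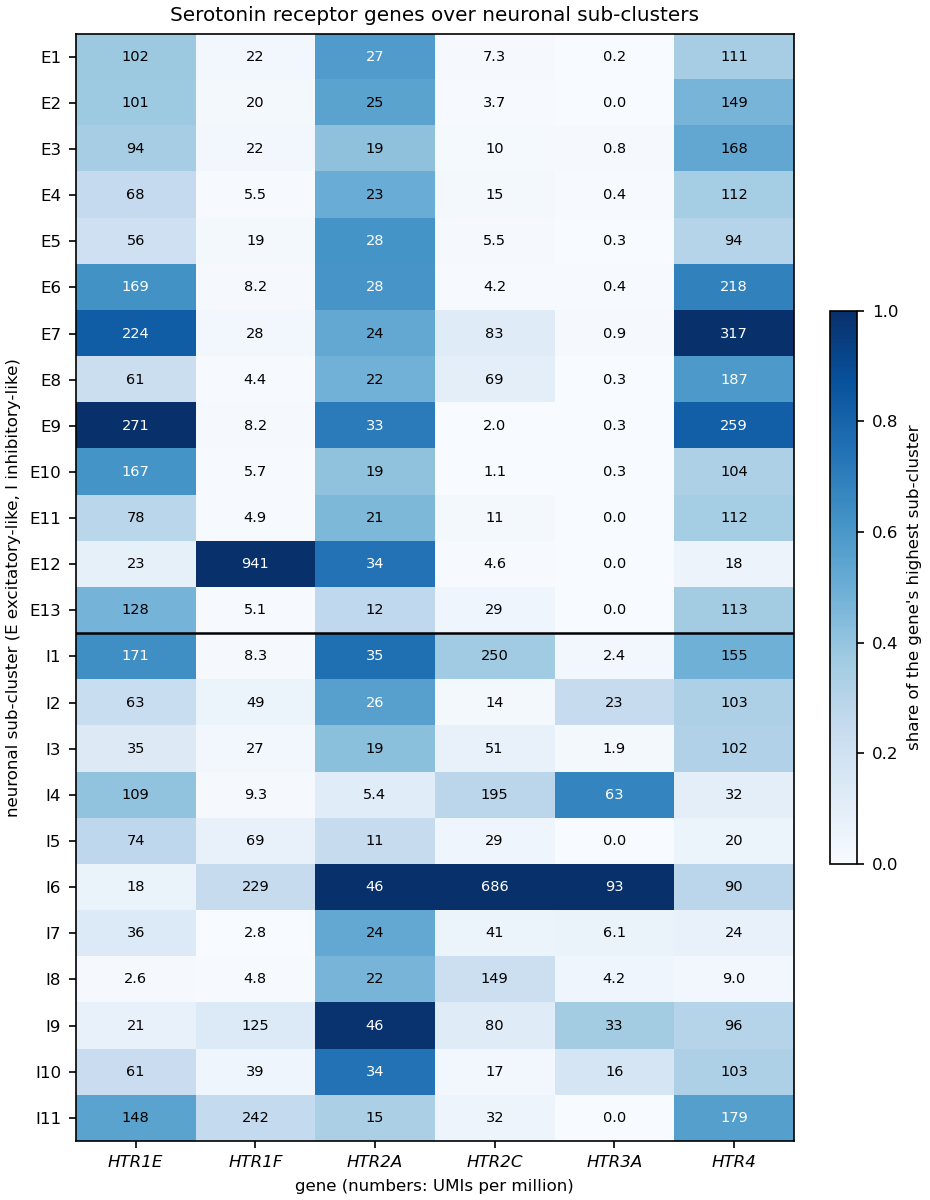
Levels of the 6 genes in the 13 excitatory and 11 inhibitory sub-clusters, in CPM as numbers, with colour giving each value as a share of the gene's highest sub-cluster. HTR1F peaks in E12 at 941 CPM, HTR2C and HTR3A in I6, HTR1E in E9 and HTR4 in E7, while HTR2A has no single peak.

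HTR1E and HTR4 were spread widely through excitatory neurons. HTR1E ranged from 22.9 CPM in E12 to 271 CPM in E9, a sub-cluster high in RGS14, a gene known from hippocampal CA2 pyramidal cells. In E9 its level was 270, 280 and 262 CPM in the sets, and 86.2% of nuclei had a UMI. HTR4 ranged from 18.3 CPM in E12 to 317 CPM in E7, where the sets gave 313, 333 and 305 CPM and 90.8% of nuclei had a UMI. E7 was marked by OPRM1, the mu opioid receptor, and by ST18, ERG and SHH, and it was also the second highest for HTR1E at 224 CPM. Its HTR1E fold over the mean of the others was 2.04, and it stayed under 2-fold in set 1. That mean includes the PROX1-high E1, E2 and E5, at 102.5, 101.2 and 55.7 CPM, and the call may not hold without them. HTR4 in E9 was 259 CPM, second to E7, so the leading pair of sub-clusters was the same for both genes in reversed order. The intervals of E7 and E9 did not overlap for either gene. For HTR1E the next sub-clusters, E6 at 169 CPM and E10 at 167 CPM, could not be told apart. For HTR4, E13, E11, E4 and E1 lay between 111 and 113 CPM with overlapping intervals.

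In inhibitory neurons HTR1E and HTR4 were again high together, in I1 and I11, which are both of the LHX6 kind. I1 expressed LAMP5 along with LHX6, and held HTR1E at 167, 178 and 170 CPM and HTR4 at 171, 129 and 168 CPM in the sets. I1 also held ADARB2 at 1627 CPM, where the other LHX6 sub-clusters held 89.5 to 153 CPM and those of the ADARB2 kind at least 8865 CPM. I11 held HTR1E at 148 CPM (119 to 183) and HTR4 at 179 CPM (146 to 217) in 86 nuclei. I8, which was high in SST (somatostatin) and NPY, was lowest for both. HTR1E had 5 UMIs in the 257 nuclei of I8, or 2.65 CPM (0.860 to 6.18), and HTR4 had 17 UMIs (5.25 to 14.4 CPM). The same nuclei held HTR2C at 149 CPM and had a median depth of 7060 UMIs. I4 parted the pair, with HTR1E at 109 CPM and HTR4 at 32.0 CPM.

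HTR2C was concentrated in a few sub-clusters. The highest of those compared was I6, an ADARB2 sub-cluster high in RELN (reelin) and CNR1 (the cannabinoid receptor), with 776 CPM in set 1, 450 in set 2 and 775 in set 3. The 333 nuclei of I6 make up 1.36% of all nuclei and gave 27.1% of all HTR2C UMIs. I1 followed at 250 CPM, I4 at 195 CPM and I8 at 149 CPM, each step larger than the counting intervals. The sets of I4 (204, 208 and 174 CPM) and I8 (147, 182 and 110 CPM) overlapped, however. At the other end, I2, which was high in VIP, held 14.0 CPM, between astrocytes at 9.15 and ependymal cells at 36.2. HTR2C was not restricted to inhibitory neurons. E7 reached 82.9 CPM (75.6 to 90.6) with a UMI in 32.8% of nuclei, and E8, which was high in MEIS2, reached 69.0 CPM (62.5 to 75.8) with a UMI in 31.0%. E7 was 6.15-fold and E8 4.69-fold above the mean of the others, each past 2-fold in every set, while E9 held 2.04 CPM and E10 1.09 CPM.

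Among the compared sub-clusters HTR3A was highest in I6 at 93.5 CPM and next in I4 at 63.1 CPM, 6.23-fold and 3.51-fold above the mean of the others. I4 was high in CNR1, VIP and CCK. The 2 sub-clusters gave 32.6% and 29.5% of all HTR3A UMIs, and no other compared sub-cluster was above 33.3 CPM (I9). HTR3A had no UMI in I5, an ADARB2 sub-cluster high in LAMP5 and RELN with 429 nuclei. A count of 0 is taken to allow 3 counts, here 1.48 CPM (the exact Poisson limit is 1.82 CPM), and on that floor I5 was at least 16.4-fold lower than the mean of the others, 24.3 CPM. I11 also had none, which in 86 nuclei allows up to 5.11 CPM. The ADARB2 kind thus held both the highest sub-cluster for HTR3A and one with no UMI of it.

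HTR1F had the narrowest high group among neurons. In E12 it reached 1034, 898 and 906 CPM in the sets, and 71.4% of the 112 nuclei had a UMI, with a median of 5 and a highest value of 43 in a nucleus. These nuclei, 0.456% of all, gave 19.1% of all HTR1F UMIs. E12 was high in CUX2, RORB and GLP2R. At a finer clustering E12 parted into 72 nuclei with 807 HTR1F UMIs and 40 nuclei with 17, or 59.1 CPM. In the 72 nuclei HTR4 gave 2 UMIs (3.40 CPM), and in the 40 it gave 14 (48.7 CPM). The next excitatory sub-cluster for HTR1F, E7, was at 28.3 CPM. Among inhibitory neurons I11 at 242 CPM and I6 at 229 CPM could not be told apart, I9 (CALB2 and NR2F2) followed at 125 CPM and I5 at 68.5 CPM, and 4 sub-clusters (I4, I1, I8 and I7) were under 10 CPM. I5 was mixed at the finer clustering, with 159 nuclei at 170 CPM of HTR1F (129 UMIs) and 268 nuclei at 7.90 CPM (10 UMIs). RELN was at 495 CPM in the 159 nuclei and at 7260 CPM in the 268.

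HTR2A, the main target of serotonergic hallucinogens, had no high sub-cluster, and it varied more over inhibitory than over excitatory sub-clusters. Over the excitatory sub-clusters it ran from 12.3 CPM in E13 to 34.3 CPM in E12, and each step in that order lay within overlapping intervals. None of the 24 sub-clusters passed 2-fold above the mean of the others of its class, while E13, I4 and I5 were at least 2-fold lower. I6 at 46.1 CPM and I9 at 45.5 CPM were the highest, and the top inhibitory log2 fold, 0.96, was at 1.00 or above in 8 of 9 alternative settings, among them 1.03 to 1.13 with a barcode set left out, and 0.97 with presumed doublets kept. The lowest was I4, with 18 UMIs in 472 nuclei, or 5.39 CPM (3.19 to 8.51). I4 was thus low in HTR2A while holding HTR2C at 195 CPM and HTR3A at 63.1 CPM.

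Within I6 the receptor genes divided the nuclei. Of its 333 nuclei, 100 had an HTR1F UMI without HTR2C, 131 had HTR2C without HTR1F, 20 had both and 82 had neither. If the genes were independent within I6, 54.4 nuclei would have both. With every nucleus thinned to 1000 UMIs, both were seen in 2 nuclei where 14.6 would be. HTR1F and HTR4 were seen together in 67 nuclei against 42.5, and HTR1F and HTR3A in 66 against 47.6, without thinning. HTR2C was seen less often with these, with HTR3A in 33 nuclei against 59.9 and with HTR4 in 37 against 53.5. With HTR1E it was seen in 20 against 10.4 and with HTR2A in 39 against 35.8. At a finer clustering I6 parted into a group of 237 of its nuclei and another of 91. The group of 237, labelled fI8, held 544 of the 570 HTR1F UMIs of I6, and the group of 91, labelled fI16, held 1467 of the 1709 HTR2C UMIs. Markers are known only for whole finer clusters, and I6 gave 91 of the 129 nuclei of fI16. CNR1 was at 1820 CPM in fI8 and 564 CPM in fI16, RELN at 1404 and 5022 CPM, and MEIS2 at 5.46 and 182 CPM. Among the 237 nuclei of fI8, 98 had HTR1F without HTR2C, 48 had HTR2C without HTR1F, 11 had both and 80 neither. HTR1E and HTR4, whose levels were high in the same sub-clusters, were seen together in 160 thinned excitatory nuclei where independence within each sub-cluster gives 172, and in 20 inhibitory nuclei where it gives 22.7.

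**Figure D4:**
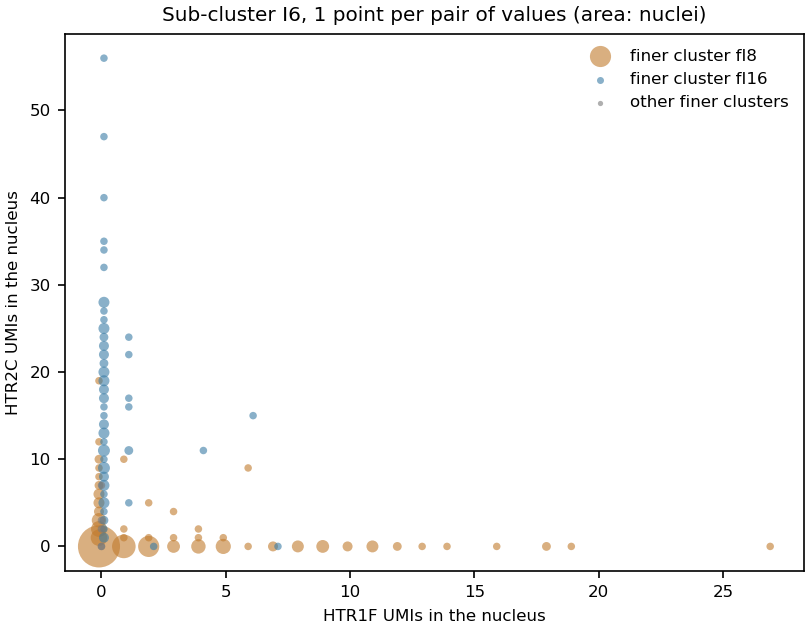
UMIs of HTR1F (horizontal) and HTR2C (vertical) in the nuclei of sub-cluster I6, with 1 point per pair of values, its area growing with the number of nuclei and its colour giving the finer cluster; points are shifted slightly sideways by cluster. Nuclei with up to 56 HTR2C UMIs lie near 0 for HTR1F and those with up to 27 HTR1F UMIs near 0 for HTR2C, and 20 of 333 nuclei hold both.

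The strongest signal outside neurons was HTR1F in mural cells. These cells wrap capillaries and arterioles and set vessel tone, and serotonin has long been known as a vasoactive agent. HTR1F gave 508 UMIs in 173 mural nuclei, or 2105, 1662 and 1644 CPM in the sets, and 117 nuclei (67.6%, 60.1 to 74.5) had a UMI at a median depth of 1402. Thinned to 1000 UMIs per nucleus, 56.5% of mural nuclei had one, against 45.5% of E12, 1.97% of all excitatory neurons and 0.455% of astrocytes. Astrocytes, at a median depth of 1733 UMIs, had an HTR1F UMI in 0.799% of nuclei without thinning. Mural cells were at 44.9 times the mean of both neuron classes in HTR1F. None of the other receptors followed it, as HTR3A gave 0 UMIs in mural cells, HTR2A 3, HTR1E and HTR2C 7 each and HTR4 11.

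The mural name was given from these markers, which also took part in the clustering, so their levels describe the class and are no separate check. All 6 markers were found, with PDGFRB at 430 CPM, RGS5 at 388, NOTCH3 at 514, ABCC9 at 619 and ACTA2 at 668, while these genes and CSPG4 lay between 13.3 and 43.3 CPM in endothelial nuclei. Endothelial markers summed to 2543 CPM in mural nuclei, of which EBF1, found in both classes, made up 2452. FLT1, PECAM1, ERG and VWF gave 7, 6, 12 and 1 UMIs in mural nuclei and CLDN5 gave 0. The 8 neuron markers had a median level in mural nuclei of 0.436 times that in all nuclei together and a highest of 1.58 times, where HTR1F was at 56.3 times.

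Endothelial nuclei held HTR1F at 240 CPM (188 to 302), between mural cells and inhibitory neurons. The signal was uneven, since 22 of 131 nuclei had all 72 UMIs and 1 nucleus had 26 of them. The sets gave 204, 372 and 146 CPM. A mural marker UMI was found in 8 of the 22 nuclei with HTR1F (36.4%, 17.2 to 59.3) and in 12 of the 109 without (5.82% to 18.4%). These intervals overlapped only between 17.2% and 18.4%, which does not show that the shares were alike. The nuclei with HTR1F were deeper, with a median of 2051.5 against 1719 UMIs. Scaled for depth, the mural markers summed to 472.9 CPM in the nuclei with HTR1F and to 94.59 CPM in those without. Whether mural RNA had a part in the signal was not tested.

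**Figure D5:**
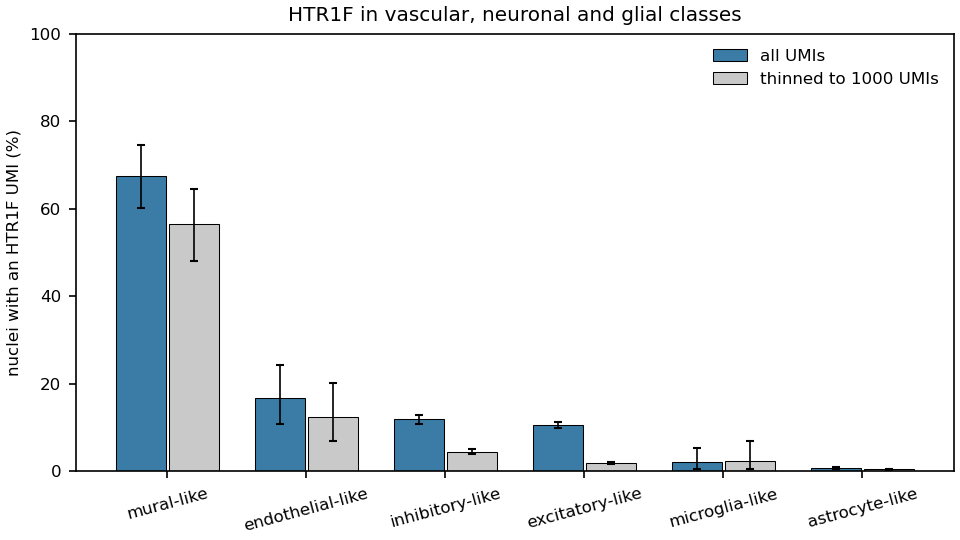
Share of nuclei with at least 1 HTR1F UMI in 6 classes, in percent, with all UMIs (blue) and after thinning each nucleus to 1000 UMIs (grey), and exact 95% Clopper-Pearson intervals. Mural cells stand at 67.6% and 56.5%, endothelial cells at 16.8%, and astrocytes under 1%.

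Against the mean of both neuron classes, 2 of 40 measured pairs of gene and glial or vascular class passed 2-fold upwards, both of HTR1F, and 35 downwards. All measured genes gave 18.5% of pairs higher and 15.7% lower. HTR1E and HTR4 were lower in all 8 of these classes and HTR2C likewise. Set against the mean of all other classes instead, 1 of 34 pairs was higher and 20 were lower, where all measured genes gave 9.77% and 18.5%. Of these 20 lower pairs 6 were HTR1F pairs set against a mean of 235 to 237 CPM that includes mural cells.

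Free RNA in the droplets can give UMIs in nuclei that do not express a gene, and its part in the glial values was not tested. In astrocytes 5 of the 6 genes lay between 0.143 and 0.199 of their level in all nuclei together, in 1 narrow band. HTR2A was the exception at 1.15 times. Other glial classes did not keep to that band, with microglia at 0.622 for HTR1F and 0.420 for HTR4, from 5 and 14 UMIs. Astrocytes held 298 HTR2A UMIs in 278 of 6008 nuclei, or 29.0, 28.1 and 26.3 CPM in the sets, with an interval of 24.8 to 31.2 that overlapped those of both neuron classes. Thinned to 1000 UMIs, 2.90% of astrocytes had an HTR2A UMI, against 2.48% of excitatory and 2.99% of inhibitory neurons. Oligodendrocyte precursors had 19 HTR2A UMIs, at 0.917 of the level in all nuclei, while oligodendrocytes were at 0.425. The neuron markers themselves ran from 0.0777 to 1.39 in astrocytes with a median of 0.471, so no single figure for free RNA can be given.

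HTR2C in ependymal cells, at 0.785 of its level in all nuclei, was another value above that band. It gave 56 UMIs in 794 nuclei, or 40.7, 24.8 and 45.1 CPM in the sets, above astrocytes at 9.15 CPM and above excitatory neurons at 16.2 CPM. HTR2C is known for very high expression in the choroid plexus, an epithelium that adjoins ependyma, and no marker of choroid plexus was on the lists used. HTR4 in microglia rested on 14 UMIs, or 55.0 CPM (30.1 to 92.2), an interval that overlapped that of inhibitory neurons. Microglia had no HTR2C UMI, which allows up to 11.8 CPM.

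Levels of HTR1E and HTR4 went up and down together over the 24 neuronal sub-clusters, with Pearson's r of 0.70 for log2(CPM + 1), and HTR2C and HTR3A with 0.62. HTR1E and HTR2C stood at -0.40. These are descriptions over groups of very unequal size that share libraries. Among 4240 genes that took no part in the clustering and reached 20 CPM somewhere, the most like HTR1E were SH3RF3 (0.836), P2RY14 (0.827), MED12L, NPFFR2 and SUSD4. P2RY14 lies within MED12L, so their reads may not be separable. HTR4 was most like AK5 (0.775), SUSD4, NPFFR2, B3GAT1 and SH3RF3, so 3 genes were shared with HTR1E. HTR3A was most like NPAS1 (0.922), a transcription factor of interneurons, SLC18A2 (0.888), the vesicular monoamine transporter, ZNF845, SLCO1C1 and MTMR10. HTR2C was most like TIMMDC1 (0.785), FNBP1, TNIP3, USP20 and IGF2BP3, and HTR1F most like ZCCHC10 (0.758), PIP5K1A, PPP4R2, FKBP3 and PTPMT1. No gene reached 0.60 with HTR2A, for which COQ10B (0.583), TARS2, MAN1B1, MAN1A2 and MNS1 came first.

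Of 8 other receptor genes listed, 6 were analysed and all were scarce. HTR6, a Gs receptor, gave 637 UMIs in all nuclei, or 5.64 CPM in excitatory and 2.90 in inhibitory neurons. HTR2B, a Gq receptor, gave 582, at 4.27 and 4.83 CPM. HTR5A gave 76 UMIs, HTR1A 44 and HTR1B 2. HTR3B, the partner subunit of HTR3A, gave 51 UMIs in all, of which 17 came from the 175 nuclei of I10, or 20.8 CPM (12.1 to 33.4). HTR3A in I10 was 15.9 CPM, and in I6, the highest of the compared sub-clusters for HTR3A, HTR3B gave 1 UMI. HTR1D and HTR7 were not analysed here.

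Among 11 genes for making, moving and breaking down serotonin, 2 passed 2-fold towards excitatory and 3 towards inhibitory neurons, where all measured genes gave 8.75% and 8.43%. SLC18A2 was at 3.76 against 25.1 CPM and SLC22A3, a low-affinity monoamine transporter, at 5.72 against 14.5 CPM, with SLC18A1 also lower at 1.48 against 3.02 CPM. MAOB, which breaks down amines, was higher at 87.4 against 27.8 CPM, and TPH2, the enzyme that starts neuronal serotonin synthesis, was at 1.88 against 0.805 CPM from 177 and 20 UMIs. SLC18A2 and SLC22A3 were also higher in the ADARB2 kind, at 38.0 against 6.52 and 21.4 against 7.42 CPM, along with HTR3A. The serotonin transporter SLC6A4 was near 2 CPM in both neuron classes.

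The signalling routes of the receptors were mixed between excitatory and inhibitory neurons. Over all measured genes 8.43% were lower and 8.75% higher in excitatory neurons. Of 9 Gs route genes 3 were lower in excitatory neurons and none higher, while HTR4 itself leaned to excitatory neurons. They were GNAS, the Gs subunit, at 102 against 346 CPM, ADCY2 at 186 against 449.5 CPM and ADCY8 at 72.3 against 247 CPM, the last 2 being adenylyl cyclases. Among the Gq route genes PLCB4, a phospholipase C, was lower in excitatory neurons at 26.4 against 325 CPM. Of 6 measured Gi route genes KCNJ6, a potassium channel subunit opened by Gi receptors, was higher at 814 against 390 CPM and GNAI2 lower at 22.5 against 46.3 CPM. Of 9 genes for receptor editing, trafficking and folding only CAV1 passed 2-fold, at 9.88 against 0.644 CPM. All of these kept their direction in the 3 sets. In the ADARB2 kind PDE4B, which breaks down cyclic AMP, was at 609 against 153 CPM and PRKCA at 439 against 152 CPM, while ADCY1 was lower at 99.9 against 204 CPM.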

How the data were processed

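The deposited values are raw UMI counts for each gene in each nucleus, whole numbers in 19708 rows and 26400 columns. The authors used fastp and Cell Ranger 3.0.0 and named the build GRCh38, per the submitters' processing notes. Macaque Ensembl identifiers name 5142 rows, so the build is not settled, and no coordinates or sequences are given. Gene annotation and filters on nuclei are not given in the sources used here. Of these rows 796 received a symbol from a reference table of macaque gene names. The labels name a droplet kit that reads the 3′ end.

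The members, lists and markers were chosen with earlier results of these data known. Clustering used 9882 genes, including the 96 markers in the table, and the 6 members were among 9826 genes kept out. Nuclei needed 200 genes. Doublet scores removed 0.8% per 1000 nuclei in each barcode set. Counts were scaled to 10000, with 2000 variable genes, 30 components, 15 neighbours and Leiden resolution 0.5 (scanpy 1.11.5, igraph 0.11.9). Neuron classes were clustered again, and sub-clusters needed 20 nuclei in each set. The thresholds for names were chosen with the values in view. An inhibitory cluster had to hold 300 CPM of GAD1 and GAD2 together, and an excitatory cluster 75 CPM of SLC17A7, 45 of SV2B and 600 of RBFOX3. The remaining classes required an average log2 ratio of their markers of 3, or 2.5 on re-clustering. The LHX6 and ADARB2 kinds were parted at 0.25 of the highest sub-cluster's level of each marker.

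Folds are ratios of CPM with a threshold of 2, and a count of 0 was replaced by 3 counts per group in a fold. The fold computation was tested on simulated counts. The total was 151526883 UMIs, and 47724193 to 52231758 per set. Named genes are the members, listed serotonin genes past 2-fold between neuron classes in every set, listed receptors with at least 50 UMIs, and the 5 genes most like each member. Some genes that meet this rule are not reported here. HTR1A and HTR1B fall outside that rule and were named after their values were seen, as were genes past 2-fold only between the LHX6 and ADARB2 kinds, and SLC6A4. Alternatives left out each barcode set, thinned nuclei, kept presumed doublets, and changed resolution, clustering genes, scaling, minimum UMIs, fold threshold and kind boundaries.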

Additional observations from a re-analysis of the deposited data

Results flagged for a closer look

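Values were found in nuclei that the comparisons did not use, above the level that a count of 0 (3 counts) allows. Sub-cluster I12, inhibitory nuclei high in ADARB2, MEIS2 (569 CPM) and NXPH1, had 35 nuclei, too few per barcode set to compare. It held HTR2C at 1563 CPM from 387 UMIs, in 34 of the 35 nuclei, and 1606, 1584 and 1452 CPM in the sets. HTR3A in I12 was 290.8 CPM from 72 UMIs and HTR1F 101 CPM from 25 UMIs. RELN stood at 125 CPM, against 3218 CPM in I6, and at a finer clustering all 35 nuclei joined the 91 HTR2C-rich nuclei of I6. The 36 Cajal-Retzius-like nuclei held HTR2A at 35.6 CPM from 8 UMIs and HTR4 at 53.4 CPM from 12 UMIs. The 1133 unnamed nuclei, with a median of 1181 UMIs, held HTR1E at 29.4, HTR1F at 7.18, HTR2A at 16.15, HTR2C at 11.5 and HTR4 at 42.0 CPM.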

How the results depend on the processing

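Between neuron classes and between inhibitory kinds, no member past 2-fold changed direction in 9 alternatives each. In excitatory against inhibitory neurons, 0 genes were higher as reported and 1 (HTR4) without barcode set 1, without set 3, at Leiden resolution 1.0, with clustering on all genes but the members and without the PROX1-high cluster, and 2 at a 1.5-fold threshold. In the ADARB2 against the LHX6 kind the 2 higher genes became 1 at a 4-fold threshold. They also became 1 (without HTR1F) with the kinds parted at 0.5 of the highest level, which I6 narrowly missed. At 4-fold, members higher in at least 1 excitatory sub-cluster went from 4 to 2, and in at least 1 inhibitory sub-cluster from 5 to 3. For glial and vascular classes the 20 lower pairs became 13 with thinned nuclei, 7 at 4-fold and 4 against the median of the other classes, and the 1 higher pair became 2 at 1.5-fold and 5 against that median. The median was chosen after seeing the data, and it leaves out the pull of mural HTR1F on the mean. By it endothelial HTR1F had a log2 fold of 5.54, against 0.19 by the mean. The mural fold of 5.48 ran from 5.28 to 8.43. By Spearman's correlation 2, 2, 0, 5, 1 and 2 of the 5 genes most like HTR1E, HTR1F, HTR2A, HTR2C, HTR3A and HTR4 were again among the first 5. Joint detection of HTR1F and HTR2C in I6 was 0.137 of the product with thinned nuclei and 0.368 without. With 1 pool, no value carries an error between animals. No paired analysis was possible because the nuclei cannot be tied to samples. Small groups also limit precision, such as the 173 mural and 112 E12 nuclei.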
